A study of Rattus norvegicus with 4 samples.

Results

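The ion channel genes are the 59 of 1185 spots on a nylon cDNA array whose printed gene name contains the word channel, apart from 5 water channel or aquaporin names. The rule uses the name and no measured value. They comprise 8 voltage-gated sodium channel genes, 6 genes of the epithelial and acid-sensing sodium channels, 10 inward rectifier potassium channels, 13 voltage-gated potassium channel genes, 8 calcium channel subunits, 6 chloride channels, 4 ATP-gated channels, 2 cyclic nucleotide-gated channels and 2 others.

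Ion channels are membrane proteins that open a pore for sodium, potassium, calcium or chloride in response to voltage, a ligand, acid or the energy state of the cell. Voltage-gated sodium and potassium channels are best known from nerve and muscle, where they carry the action potential, but fat contains other cells too, among them blood vessel cells, nerve fibres and leukocytes. Inward rectifiers hold the resting potential, and the ATP-sensitive type, built from a Kir6 pore and a sulfonylurea receptor, opens when the ATP of the cell falls.

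Total RNA of mesenteric white adipose tissue, the fat around the gut, was labelled with 33P and hybridized from 4 female Wistar rats, each on an array of its own. The arrays are named control 1, control 2, OE 1 and OE 2. The OE-treated rats had received oleoyl-estrone (OE), the oleic acid ester of estrone, through a stomach cannula, a daily dose of 10 μmol/kg in 0.2 ml of sunflower oil for 2 days, and fat was dissected 48 h after the first dose. The control rats received the oil by the same route, so that gavage and oil were shared by both groups, and all rats were fed chow freely. The study reported that OE-treated rats ate less and had a lower relative body weight than controls. Effects of OE and of lower food intake cannot be told apart in these groups. The comparison addresses which genes of this tissue changed after OE treatment. The number of rats, 2 per group, limits the precision of every value.

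The adjusted intensity of a spot is its signal minus the background of the array. A gene is called detected here once that value reaches 2 times the background, a limit of 120 for control 1, 108 for control 2 and 122 for both OE arrays. Between 152 and 246 of the 1185 genes reached this limit on an array, and the median adjusted intensity of the arrays lay between 9 and 22. Adipocyte markers were present but uneven: FABP4, the fatty acid carrier of fat cells, was detected on all 4 arrays, and leptin, the hormone of fat cells, on none, with at most 11. In bulk tissue, fewer cells of a type and less RNA per cell cannot be told apart.

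Nearly all ion channel genes lay below the detection limit in both groups. Only 2 of the 59 (3.39%) reached it on any array, each on a single array, against 285 of the 1185 genes on the whole array (24.1%). These were the ATP-sensitive potassium channel Kir6.2 on OE 1 and the brain type sodium channel 2 on control 1. None reached it on all 4 arrays, as 100 genes of the whole array did (8.44%). For 54 of the 59 genes (91.5%) the adjusted intensity stayed below 1 times the background on every array, which was so for 64.3% of all genes. Of their 236 values, 2 lay at or over the limit, 9 at or over the background, and 64 at 0. A gene below the limit was not detectable at this sensitivity, which does not show that its RNA was absent.

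The low signal was shared by the groups. The median adjusted intensity of the 59 genes was 5 for control 1, 3 for control 2, 6 for OE 1 and 3 for OE 2. Between 46 and 53 of them lay under the median of all genes on the same array. The number at 0 was 12 on control 1 and on OE 1, and 20 on control 2 and on OE 2, so that it differed between the rats of a group and not between the group counts. By channel type, a value over the background was found for 3 of the 8 voltage-gated sodium channel genes, 1 of the 10 inward rectifiers and 1 of the 6 chloride channels, and for no gene of the remaining types.

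**Figure D1:**
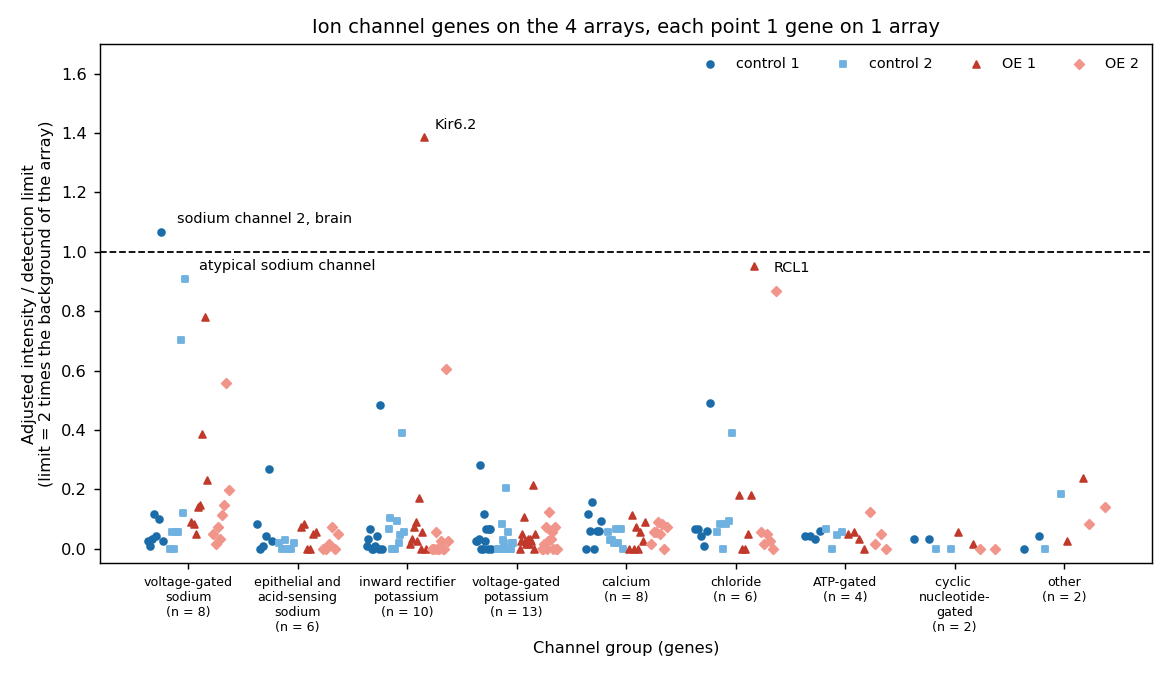
Adjusted intensity of the 59 ion channel genes divided by the detection limit of the array (vertical axis, no unit), by channel type (horizontal axis), with 1 point per gene and array and the limit as a dashed line. Only Kir6.2 on OE 1 and sodium channel 2 on control 1 lie above the line, and RCL1 lies just under it on OE 1.

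Kir6.2 (GenBank X97041), the pore of ATP-sensitive potassium channels, had adjusted intensities of 58 and 42 in controls, against 169 for OE 1 and 74 for OE 2. It passed the limit on OE 1 only, and OE 2 lay nearer to the controls than to OE 1. Divided by the median of each array, which is the scale used for all comparisons here, the values were 4.14 and 4.67 in controls and 7.68 and 4.35 in OE-treated rats. The control mean was 4.40 ± 0.370 array medians (SD, n = 2) and the OE mean 6.02 ± 2.35 (SD, n = 2), a ratio of 1.37. On this scale the groups overlapped, since OE 2 lay below control 2. limma gave a log2 difference of 0.40 with a standard error of 0.63 and an adjusted p of 0.957. Without OE 1 the ratio was 0.988, so that the difference rested on that array.

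The array held 2 sulfonylurea receptor entries, the partners of Kir6 pores, chosen for naming after their values were seen. The entry D83598 had 34 and 16 in controls and 77 and 42 in OE-treated rats, and passed the background on OE 1 only. The entry L40624 stayed between 3 and 6. Neither reached the limit on any array. The related pore Kir6.1, which is known from blood vessel muscle, had 1, 7, 2 and 0 on control 1, control 2, OE 1 and OE 2.

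Sodium channel 2 of brain (X03639), a pore-forming subunit known from neurons, had 128 and 13 in the controls and 95 and 68 in the OE-treated rats. Control 1 was above the limit and control 2 far under it, and on the scale of array medians the controls stood farther apart than any control from any OE array. In array medians the controls were at 9.14 and 1.44 and the OE arrays at 4.32 and 4.0, both between the controls. The controls averaged 5.29 ± 5.44 (SD, n = 2) and the OE-treated rats 4.16 ± 0.225 (SD, n = 2), with a ratio of 0.786 that became 1.16 without scaling between arrays. The log2 difference from limma had the opposite sign, at 0.19 with a standard error of 1.02 and an adjusted p of 0.989. The ratio to control 1 alone was 0.455 and to control 2 alone 2.88, which lie on either side of no change.

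The gene nearest below the limit was that printed as chloride channel RCL1 (D13985), placed among the chloride channels by this name alone. It was chosen for naming after its values were seen. It had 59 and 42 in controls and 116 and 106 in OE-treated rats, which were under their limit of 122. In array medians it lay at 4.21 and 4.67 in controls and 5.27 and 6.24 in OE-treated rats, and both OE values were above both controls. The ratio was 1.30 and the log2 difference 0.37 with a standard error of 0.57 (limma adjusted p = 0.957).

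Of the remaining genes, 2 further sodium channel genes passed the background on 1 array, control 2. The atypical voltage-gated sodium channel (Y09164) had 3 in control 1, 98 in control 2, 28 in OE 1 and 24 in OE 2. The sodium channel beta 1 subunit (M91808), an accessory subunit that sets the gating of the pore and was also named after its values were seen, had 12, 76, 47 and 18 in the same order. For both genes the OE arrays lay between the controls. In array medians the controls averaged 5.56 ± 7.53 (SD, n = 2) for the atypical channel and the OE-treated rats 1.34 ± 0.0983 (SD, n = 2), a ratio of 0.241, and the beta 1 subunit had a ratio of 0.344. Without control 2 these ratios became 6.26 for the atypical channel and 1.86 for the beta 1 subunit. limma gave log2 differences of -0.26 with a standard error of 1.84 for the atypical channel and -0.84 with a standard error of 1.23 for the beta 1 subunit.

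**Figure D2:**
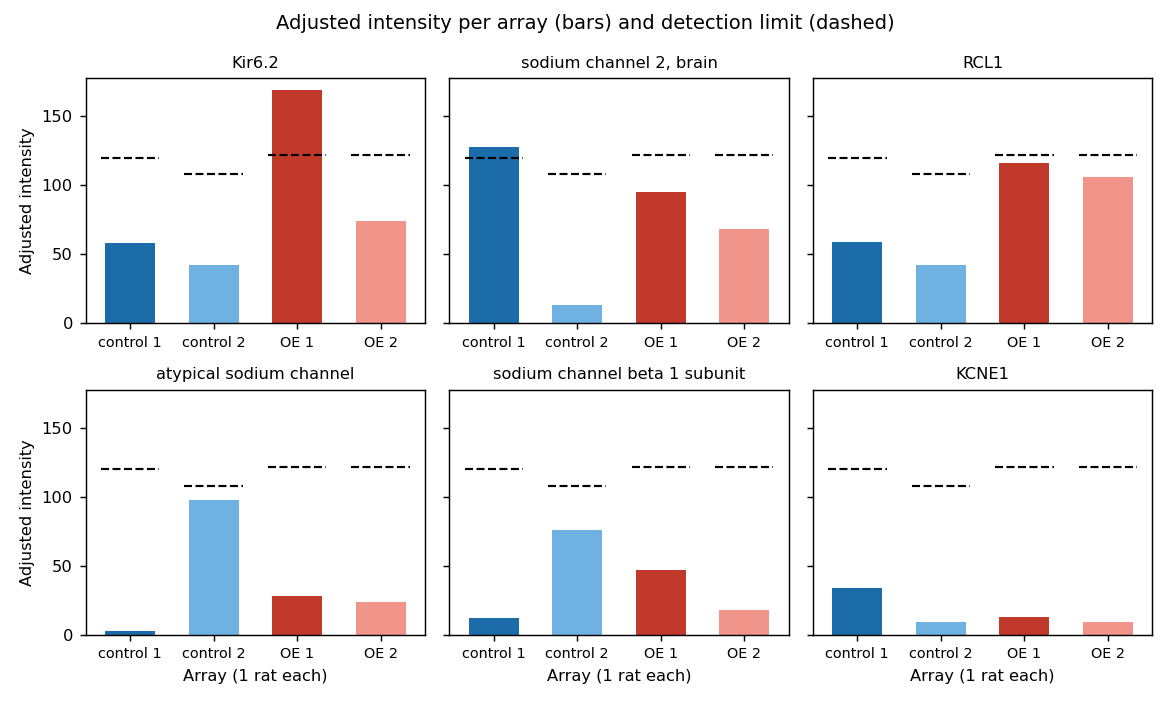
Adjusted intensity (vertical axis, arbitrary units) of 6 ion channel genes on each array (horizontal axis, 1 rat each), with the detection limit of the array as a dashed line. Kir6.2 passes the line on OE 1 and sodium channel 2 on control 1, while the atypical channel and the beta 1 subunit stand highest on control 2.

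The sodium channel genes with unequal controls were set beside markers of 2 other kinds of cell. Unequal controls were common, over 2-fold apart for 57.6% of the 922 genes kept for the comparison below. On control 2 the leukocyte markers were mostly low and the adipocyte markers mostly high. A gene with unequal controls therefore resembles 1 of the 2 lists in either direction. The 7 leukocyte markers summed to 216 array medians for control 1, 22.2 for control 2, 228 for OE 1 and 124 for OE 2, and 6 of the 7 were lowest on control 2. CD45, the common surface antigen of leukocytes, had 2038, 71, 3180 and 1319, so that it was low on the same array as sodium channel 2. The 5 adipocyte markers summed to 267, 2251, 427 and 521 array medians in the order of the leukocyte sums, and 4 of the 5 were highest on control 2. FABP4 made up most of each sum, with 252, 2115, 401 and 501 array medians. The study reported lower mRNA of FABP4, lipoprotein lipase and fatty acid synthase after OE, so these markers are not neutral to treatment. As adjusted intensities, FABP4 had 3532, 19033, 8811 and 8512, and lipoprotein lipase, which frees fatty acids from lipoproteins, had 115, 746, 342 and 242. They were high on the same array as the atypical channel and the beta 1 subunit. The part of these cells in the sodium channel values was not tested. The 7 nerve and glia markers, among them synapsin, SNAP-25 and neuron-specific enolase, were detected on no array, their highest value was 36, and they summed to between 2.50 and 5.44 array medians. Synaptophysin was at 0 on 2 arrays and at 3 on the others.

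**Figure D3:**
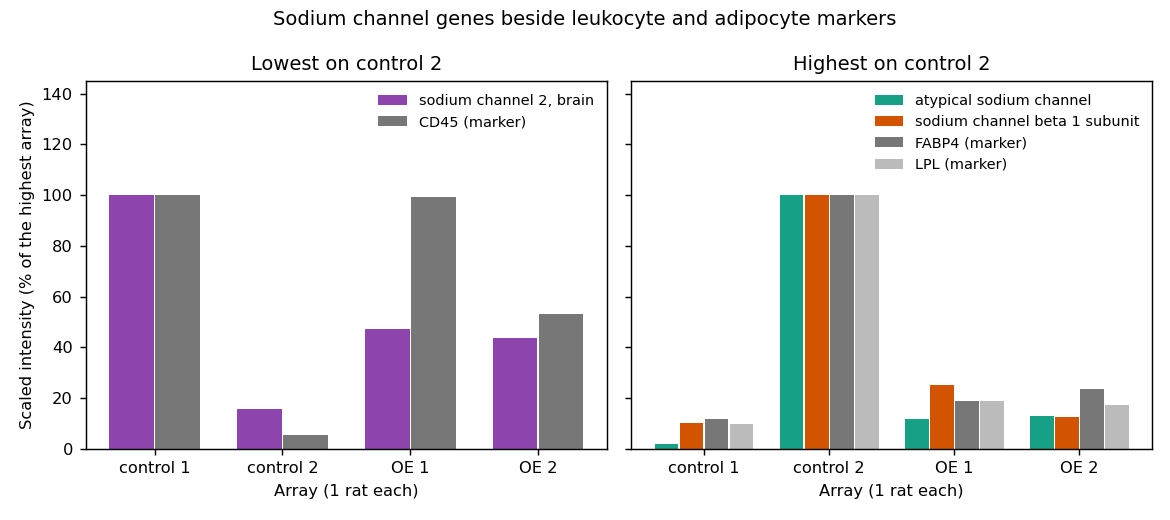
Scaled intensity as percent of the highest array of the same gene (vertical axis) on each array (horizontal axis, 1 rat each), for sodium channel 2 beside CD45 on the left and for the atypical channel and the beta 1 subunit beside FABP4 and LPL on the right. The left genes are lowest and the right genes highest on control 2, and each OE array lies below the highest control, with CD45 on OE 1 close to control 1.

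KCNE1 (M22412), the accessory subunit of the slow delayed rectifier of heart, was the only ion channel gene among those the study selected for its list, so that its ratio is no independent evidence of a direction. Its adjusted intensities were 34 and 9 in controls and 13 and 9 in OE-treated rats. All 4 values lay below the background, and control 2 and OE 2 were equal before scaling. In array medians it was at 2.43 and 1.00 in controls and 0.591 and 0.529 in OE-treated rats, so that both OE values lay below both controls. The controls averaged 1.71 ± 1.01 (SD, n = 2) and the OE-treated rats 0.560 ± 0.0435 (SD, n = 2), a ratio of 0.327. limma gave a log2 difference of -1.48 with a standard error of 0.70, an unadjusted p of 0.088 and an adjusted p of 0.957. The ratio was 0.560 without control 1 and 0.231 without control 2.

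For the comparison of the groups over all ion channel genes, values were raised to a floor of 0.235 array medians, and genes were kept if both rats of 1 group or the other exceeded it. This left 29 of the 59 ion channel genes (49.2%), against 922 of the 1185 genes of the array (77.8%). The other 30 did not enter, and 6 of them had no value above the floor. A gene kept through 1 group alone was at the floor on at least 1 array of the other group, which favours unequal groups, so that the following counts describe the values and support no change. Only 10 of the 29 lay above the floor on all 4 arrays.

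Of the 29 genes, 8 had a ratio of OE to control under 0.5, where 18.3% of the 922 genes did, and 4 had a ratio over 1.5, where 18.9% did. That is 27.6% and 13.8% of the 29. The remaining 17 lay between. All 12 genes past these cutoffs were below the detection limit on all 4 arrays, but so were 57 of the 59 ion channel genes. Among the 922 genes this held for 112 of the 169 under 0.5 and 136 of the 174 over 1.5. For 6 of the 12 the controls were over 2-fold apart, against 57.6% of the 922 genes. Beside counts of ratios, array order or p-values, here and below, all genes means all genes kept by the filter. Both OE values lay below both controls for 7 of the 29 genes, against 15.8% of the 922 genes. They lay above both for 4, against 14.1% of the 922, and the groups overlapped for 18. The controls were over 2-fold apart for 15 of the 29 genes, against 57.6% of the 922, and the OE arrays for 7, against 22.5%.

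limma found 0 of the 29 genes at an adjusted p under 0.05, as for the whole array (0%). At an unadjusted p under 0.05 there was 1 gene, CLC5, where 2.06% of all genes passed. The standard errors of the log2 differences ran from 0.57 to 1.84. The median log2 difference was -0.14 over the 29 genes and -0.04 over the 922. Without scaling between arrays, the ratio was under 0.5 for 4 of 28 ion channel genes kept (3.04% of all genes) and over 1.5 for 11 (50.7% of all genes). Leaving out an array changed both the counts and the number of genes kept. Without control 1, 14 of 39 were under 0.5 (31.0% of all genes) and 9 over 1.5 (27.1%). Without control 2 the counts were 9 (11.9%) and 7 (30.1%) of 39. They were 9 (25.0%) and 8 (19.4%) of 33 without OE 1, and 10 (16.4%) and 7 (20.5%) of 36 without OE 2, each with the share of all genes in parentheses.

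**Figure D4:**
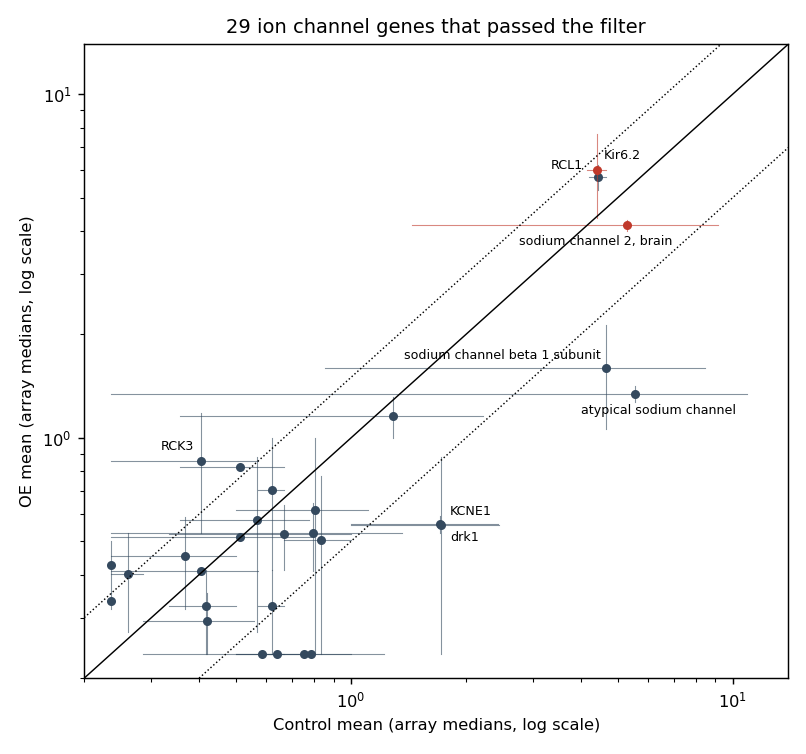
Mean of the OE arrays against the mean of the control arrays (both in array medians, log scales) for the 29 ion channel genes that entered the comparison, with lines from the lower to the higher array of each group. The solid diagonal marks a ratio of 1 and the dotted lines ratios of 0.5 and 1.5, and red points are the 2 genes detected on 1 array, both of which lie between the dotted lines.

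Among the 29 genes, those with the lowest computed ratios were the atypical sodium channel and KCNE1, described above, and 3 others, which were below background on every array. CLC5 (D50497), a chloride transporter of endosomes, had 8 and 9 in controls and 0 and 2 in OE-treated rats. Both OE values were at the floor, which gave a ratio of 0.299 and a log2 difference of -1.68 with a standard error of 0.62 (limma unadjusted p = 0.0425, adjusted p = 0.957). KCNJ2 (AF021137), an inward rectifier that holds the resting potential of muscle and nerve, had 4 and 11 in controls and 4 and 0 in OE-treated rats. Its ratio was 0.312, with both OE values at the floor, and it was 0.193 without control 1 and 0.750 without control 2. The delayed rectifier drk1 (X16476) had 14 and 22 in controls and 4 and 15 in OE-treated rats, a ratio of 0.324, which was 0.512 without OE 1, 0.158 without OE 2 and 0.548 without control 2. These adjusted intensities are small beside the detection limits of 108 to 122, so that none of these ratios is given as a measured fold.

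The 5 highest ratios among the 29 genes were equally made of values below the background. The potassium channel RCK3 (X16001), a voltage-gated pore of the Shaker family, had 8 and 0 in controls and 26 and 9 in OE-treated rats, with a ratio of 2.12. It was 3.64 without control 1, 1.497 without control 2 and 1.31 without OE 1. Sodium channel I (M22253), another pore-forming subunit known from brain, had 3 and 0 in controls and 11 and 6 in OE-treated rats, with a ratio of 1.81 against controls that were both at the floor. The sodium channel beta 2 subunit (U37026), an accessory subunit, had 5 and 6 in controls and 18 and 14 in OE-treated rats, with a ratio of 1.60, and both OE values lay above both controls after scaling. It was 2.30 without control 2. Sodium channel protein 6 (L39018) had 4 and 0 in controls and 6 and 9 in OE-treated rats, with a ratio of 1.54 that became 0.977 without OE 2. The acid-sensing channel ASIC1 (U94403), which opens to protons, had 3 and 2 in controls and 7 and 6 in OE-treated rats, with a ratio of 1.43 that became 0.961 with normexp and 1 with a floor at the 25th percentile. limma gave adjusted p-values of 0.957 for all 5 genes.

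Within the channel types, the counts past the cutoffs were small in both directions. Over all genes kept, 18.3% had a ratio under 0.5 and 18.9% over 1.5. Each type holds too few genes to be set against these shares. Of the 8 voltage-gated sodium channel genes, 7 entered the comparison, 2 with a ratio under 0.5 and 3 over 1.5. The 3 over 1.5 did not exceed an adjusted intensity of 18. The 2 under 0.5 were the atypical channel and the beta 1 subunit, whose ratios became 6.26 and 1.86 without control 2. Only 1 of the 6 epithelial and acid-sensing genes entered, ASIC1, and it lay between the cutoffs. The 3 subunits of the epithelial sodium channel, which takes up sodium in kidney and colon, did not enter, and their values ran from 0 to 10. The neuronal acid-sensing channel DRASIC had 32 on control 1 and at most 6 elsewhere.

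Among the potassium channels, 3 of the 10 inward rectifiers entered, KCNJ2 with a ratio under 0.5 and none over 1.5, and apart from Kir6.2 no inward rectifier exceeded 21. Of the 13 voltage-gated potassium channel genes 4 entered, with KCNE1 and drk1 under 0.5 and RCK3 over 1.5, and apart from KCNE1 none exceeded 26. The G protein-activated rectifiers GIRK1 and GIRK4, known from heart and brain, did not enter, and they were each at 0 on at least 2 arrays.

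The calcium channel subunits, which admit calcium on depolarization, did not exceed 19, the value of the L-type alpha 1C subunit on control 1. Of the 8, 6 entered, and 1 had a ratio under 0.5, the beta subunit of brain, with 7 and 7 in controls and 3 and 0 in OE-treated rats. Of the 6 chloride channels 4 entered, CLC5 with a ratio under 0.5, and apart from RCL1 none exceeded 22. Of the 4 ATP-gated channels, which open to extracellular ATP, 3 entered, P2X3 with a ratio under 0.5, and none exceeded 15, a value of P2X4. The related P2X1 and P2X2, whose printed names lack the word channel, were counted with the ligand-gated receptors below. P2X1 had 48 and 9 in controls and 28 and 39 in OE-treated rats, all below the background. P2X3, known from sensory neurons, had 7 and 6 in controls and 0 and 0 in OE-treated rats, a ratio of 0.403 with both OE values at the floor. The 2 olfactory cyclic nucleotide-gated channels did not enter and stayed at or below 7. Of the 2 other genes, the urate transporter and channel had 5 and 20 in controls and 29 and 17 in OE-treated rats, and the channel-inducing factor CHIF stayed at or below 10.

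Other genes of ion transport were found on the array by name, 64 in all, as 13 ion pumps, 12 exchangers and cotransporters and 39 receptors that are ligand-gated channels. Of these, 4 were detected on at least 1 array (6.25%, against 24.1% of all genes) and 2 on all 4 (3.1%, against 8.44%). The alpha 1 subunit of the sodium-potassium ATPase, the pump that builds the gradients channels use, had 201 and 289 in controls and 303 and 401 in OE-treated rats. It was over the limit in every rat, and after scaling the groups overlapped, with a ratio of 0.804, while the unscaled values were higher in both OE-treated rats. The ratio to control 1 alone was 1.30 and to control 2 alone 0.582. The spot named inositol triphosphate 3-kinase receptor 2 (INSP3R) had 203 and 146 in controls and 237 and 157 in OE-treated rats, also over the limit in every rat. After scaling both OE values lay below both controls, with a ratio of 0.651, which was not so for the unscaled values. Inositol triphosphate receptor subtype 3, a calcium release channel of the endoplasmic reticulum, had 183, 71, 281 and 227 and was below the limit on control 2 only. The beta 2 subunit of the sodium-potassium ATPase reached 165 on OE 1 and at most 73 elsewhere.

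**Figure D5:**
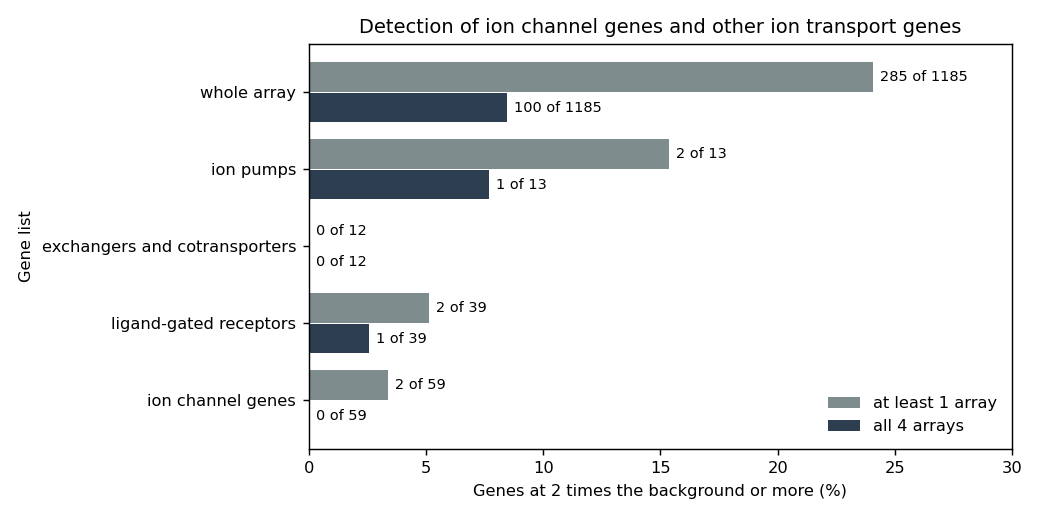
Percent of genes that reached 2 times the background (horizontal axis) on at least 1 array (grey) and on all 4 arrays (dark), for 5 gene lists (vertical axis). Ion channel genes reach 2 of 59 and 0 of 59, and the whole array 285 of 1185 and 100 of 1185.

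None of the 12 exchangers and cotransporters was detected. The sodium-dicarboxylate cotransporter, which takes up citric acid cycle intermediates in gut and kidney, had 0 and 0 in controls, 7 on OE 1 and 110 on OE 2, and the sodium-glucose cotransporter 1 of gut had 0, 3, 3 and 64. Both were highest on OE 2, where the 4 intestine markers summed to 272 array medians against 1.22 to 3.05 on the other arrays. The part of intestinal RNA in these values was not tested. Of the 64 genes, 36 entered the comparison, 5 with a ratio under 0.5 (13.9%, against 18.3% of all genes) and 5 over 1.5 (13.9%, against 18.9%). limma found 0 of them at an adjusted p under 0.05 (0% of all genes) and 2 at an unadjusted p under 0.05 (2.06% of all genes).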

How the data were processed

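The authors deposited the intensity of every spot as Atlas Image wrote it, with its background and an adjusted value, their difference or 0 if negative (0 exceptions). No scaling between arrays had been applied. From the array files, 12 columns of a second array were left out, as was the series-wide table, since 0 of its 1185 row names equalled an array code. The methods name GeneSpring, whose control strength filter was not repeated.

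Adjusted intensities were divided by the 50th percentile of each array, raised to a floor, the 10th percentile of positive scaled values, and compared as ratios of group means, with the methods' cutoffs of 0.5 and 1.5. Log2 values were tested with limma 3.58.1 in R 4.3.3, with Benjamini-Hochberg adjustment over 922 genes. The fit was checked on simulated data with little noise, which tests the code and does not measure the power to find changes here. Permutation tests were left out, because 4 arrays are too few for an exact p under 0.05. Figures were drawn with matplotlib 3.10.9.

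The ion channel genes, the channel types, the marker and transport lists and the limit of detection were chosen with earlier results of these data known. The genes named are those detected on any array, KCNE1, sodium channel 2 of brain, and the 5 lowest and 5 highest ratios. Others were named as markers, by channel type or after their values were seen. No naming rule set in advance covered the single pumps, cotransporters and receptors, or the further genes given by channel type, such as DRASIC. No sequences of the spots were used here.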

Additional observations from a re-analysis of the deposited data

How the results depend on the processing

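The limits are those of 2 rats per group and of signals below 2 times the background. The counts of ion channel genes with a ratio under 0.5 and over 1.5, 8 and 4 of 29 in the values reported, were 4 and 11 of 28 without scaling between arrays (3.04% and 50.7% of all genes), 4 and 0 of 13 with a floor at the 25th percentile (16.1% and 14.6%), 2 and 1 of 10 with a filter on all 4 arrays (17.4% and 15.0%), and 0 and 0 of 47 with normexp at an offset of 50 (0.905% and 7.42%). Leaving out each array in turn gave 9 to 14 and 7 to 9 genes, of 33 to 39 kept. A group left with 1 array is then assumed to vary like the other group. The median log2 difference of -0.14 (-0.04 for all genes) became 0.12 when arrays were scaled to the genes detected on all 4 (0.23 for all genes), 0.65 without scaling (0.74), -0.33 with quantile normalization (0.02) and 0.12 with a filter on all 4 arrays (-0.07). It ran from -0.84 without control 1 (-0.42) to 0.040 without OE 2 (0.07), and was -0.42 without control 2 (0.05) and 0.01 without OE 1 (-0.08). The count detected on at least 1 array, 2, was 5 at 1 times the background, 0 at 3 times, 1 after equal brightness with a common limit, and 1 to 2 when arrays were left out. The count detected on all 4 arrays stayed at 0 in each of these. Without control 2 the ratio of the atypical sodium channel turned to 6.26, and without OE 2 that of sodium channel protein 6 turned to 0.977, within a range of 0.977 to 2.03 when arrays were left out. The ratio of ASIC1, which was not past a cutoff, became 0.961 with normexp. The cause of these shifts was not tested.

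limma gave 0 ion channel genes at an adjusted p under 0.05 in every fit run, with a smallest adjusted p between 0.171 (without control 1) and 0.999, and 0 to 11 genes at an unadjusted p under 0.05. With a replicate block it gave 0, with a smallest adjusted p of 0.991. Same-numbered arrays correlated at 0.0495 in their deviations from the group means, so that the number was not taken to pair rats. The series table as an alternative was not run.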
